A study of Mus musculus with 46 samples.

Results

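The regions described here were 10054 copies of endogenous retroviruses of the ERVK family, out of 319317 ERVK copies (3.15%) among the 5147736 repeat loci counted in total RNA of mouse B16F10 melanoma cells. They were chosen by the repeat annotation (class LTR, family ERVK) and by a mean of the deposited log2 values over the 4 total RNA libraries of at least 2, so their levels are a description. B16F10 cells carried sgArid1a, a guide RNA against Arid1a, or sgScramble, a control guide; the protein ARID1A binds DNA and belongs to the BAF form of the SWI/SNF chromatin remodellers. The total RNA came from 2 libraries of untreated sgArid1a cultures and 2 libraries of untreated sgScramble cultures. Genes that start inside an ERVK copy were read in polyA RNA of untreated B16F10 cultures, of subcutaneous B16F10 tumors on day 15, of B16F10 cultures given DMSO for 72 h and of untreated MC38 colon cancer cells, each with 2 sgArid1a and 2 sgScramble libraries. The fits of the untreated and DMSO tables also took in the other groups of those tables for the estimate of the spread, namely untreated B16F10 cells with sgArid1a/sgCgas or sgArid1a/sgSting (2 libraries each) and sgArid1a cells given Ruxolitinib, a JAK inhibitor, for 72 h (2 libraries). They were also read in mouse embryonic fibroblasts (MEFs) with floxed Arid1a alleles in both groups, 2 libraries of Arid1a -/- MEFs on day 5 after tamoxifen and 2 of WT MEFs given ethanol. Whether the guide-bearing cells were 1 clone or a pool, and which Cre acted in the MEFs, is not given in the sources used here. The labels do not say that the 2 libraries of a group came from separate cultures, so every p-value here rests on the spread of libraries, which may be technical.

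ERVK elements are retroviruses that entered the mouse germ line; a full copy has an internal part with gag, pro and pol genes between a pair of long terminal repeats (LTRs) that hold its promoter, and many copies are single LTRs left by recombination. IAP (intracisternal A-type particle) and ETn (early transposon) elements are still mobile in laboratory mice, and ETn elements, which lack intact genes, use the proteins of the related MusD elements. Most copies are kept silent by KRAB zinc-finger proteins that bring TRIM28 and the histone methyltransferase SETDB1, and by DNA methylation. In the names used here, "-int" or "_I-int" marks an internal part, and RLTR and RMER names mostly mark LTRs.

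A few sequences show what was counted. The first set gives the starts of 3 predicted genes on chromosome X whose windows run from an LTR into an IAPEz-int copy among the loci described here; each window is 250 bases before to 50 bases after the gene start (RefSeq, GRCm38.p6), in lower case, with the part inside IAPEz-int in capitals. The windows are chrX:78709040-78709339 on the plus strand for Gm52446, chrX:65707145-65707444 on the plus strand for Gm52432 and chrX:84512575-84512874 on the minus strand for Gm52441.
Gm52446: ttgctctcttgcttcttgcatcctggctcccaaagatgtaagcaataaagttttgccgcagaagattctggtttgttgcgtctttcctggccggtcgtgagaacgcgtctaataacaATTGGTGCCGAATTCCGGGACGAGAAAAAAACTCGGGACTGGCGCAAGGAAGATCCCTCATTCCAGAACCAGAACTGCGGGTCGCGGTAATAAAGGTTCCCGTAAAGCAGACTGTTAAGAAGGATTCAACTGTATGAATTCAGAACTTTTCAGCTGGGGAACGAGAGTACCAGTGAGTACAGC
Gm52432: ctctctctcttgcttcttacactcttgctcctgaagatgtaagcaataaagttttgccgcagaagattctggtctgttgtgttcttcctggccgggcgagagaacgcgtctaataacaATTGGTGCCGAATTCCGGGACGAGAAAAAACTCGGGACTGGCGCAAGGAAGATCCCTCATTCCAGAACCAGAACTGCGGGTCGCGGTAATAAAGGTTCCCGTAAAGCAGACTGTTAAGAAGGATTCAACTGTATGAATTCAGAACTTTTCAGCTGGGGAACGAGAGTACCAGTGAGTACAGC
Gm52441: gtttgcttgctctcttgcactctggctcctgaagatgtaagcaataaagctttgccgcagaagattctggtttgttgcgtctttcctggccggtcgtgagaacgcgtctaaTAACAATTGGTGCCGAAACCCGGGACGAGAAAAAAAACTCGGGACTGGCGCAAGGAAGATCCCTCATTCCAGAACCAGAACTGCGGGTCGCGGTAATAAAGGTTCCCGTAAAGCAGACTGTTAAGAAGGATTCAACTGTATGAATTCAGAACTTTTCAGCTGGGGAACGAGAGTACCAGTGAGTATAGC
The capital parts were 98.9% identical between Gm52446 and Gm52432, 92.6% between Gm52446 and Gm52441 and 91.5% between Gm52432 and Gm52441. The 10 letters TGGTGCCGAA, read at base 120 of the Gm52446 window, are the start of the primer binding site at which a phenylalanine tRNA begins reverse transcription of IAP RNA. They stood at bases 121 and 119 of the windows of Gm52432 and Gm52441, and 13 of 32851 RefSeq mouse promoter windows held them on either strand (0.0396%). AATAAA, the usual polyadenylation signal, began at base 44, 45 or 43 in the lower-case part and again at base 206 in each of the 3 windows, against 19.6% of all windows with at least 1 match. Copies this alike share short reads, and whether reads with several alignments were kept is not given in the sources used here, so the values of single IAP copies are not independent of each other.

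The IAPEz-int copy that holds the end of the Gm52446 window had log2 values of 6.11 and 5.85 in sgArid1a libraries and 5.18 and 5.70 in sgScramble libraries. The copy of Gm52432 had 6.96 and 6.72 in sgArid1a libraries and 6.28 and 6.87 in sgScramble libraries. The copy of Gm52441 had 5.90 and 5.72 in sgArid1a libraries and 4.77 and 5.34 in sgScramble libraries. The groups overlapped in the copy of Gm52432 and did not in the other 2 copies. The differences, sgArid1a minus sgScramble, were 0.54, 0.27 and 0.75 for Gm52446, Gm52432 and Gm52441, and none passed the test (limma with Benjamini-Hochberg adjustment over all repeat loci, adjusted p = 0.491, 0.814 and 0.185).

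A second pair of sequences belongs to 1 locus that fell and 1 that rose. The exon of the lincRNA Gm14461 inside an RMER19C LTR (chr2:78293325-78293486, plus strand, GENCODE vM21 on GRCm38) belongs to the locus with the largest fall among loci named here. The exon of the lincRNA Gm31517 inside an ETnERV-int copy (chr14:15031070-15031197) belongs to the locus that rose in the ETn group, a group read from names. It is printed on the plus strand, the strand of the element and opposite to the gene.
Gm14461 exon in RMER19C: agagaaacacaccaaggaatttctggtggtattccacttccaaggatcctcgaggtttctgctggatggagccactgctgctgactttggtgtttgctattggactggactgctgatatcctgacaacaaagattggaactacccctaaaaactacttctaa
Gm31517 exon in ETnERV-int: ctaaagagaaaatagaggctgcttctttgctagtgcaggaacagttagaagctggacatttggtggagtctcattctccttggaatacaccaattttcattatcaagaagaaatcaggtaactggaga
The 128 bases in ETnERV-int had no stop codon in 1 of 3 frames on the printed strand, and the 162 bases in RMER19C had stop codons in all 3 frames.

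The total RNA libraries had 73.0 and 71.9 M reads with sgArid1a and 62.6 and 62.9 M reads with sgScramble, per the file headers. The polyA libraries had 8.68 to 38.8 M. The lowest, at 8.68 M, was sgScramble library 1 of the untreated B16F10 cultures. The other sgScramble library of these cultures had 22.8 M, and the sgArid1a libraries had 20.5 and 20.1 M. All comparisons with sgScramble in untreated polyA RNA use the library with 8.68 M as a control. The repeat table holds no genes, so Arid1a was read in polyA RNA. In untreated B16F10 cells Arid1a had log2 values of 10.43 and 10.39 with sgArid1a and 10.90 and 11.08 with sgScramble (difference -0.58 ± 0.11 SE, limma adjusted p = 0.00431). It fell also in tumors (-0.32), MC38 cells (-0.14) and MEFs (-0.43), and in DMSO cultures the difference was -0.26 with an adjusted p of 0.235. A guide changes the gene's sequence and need not lower its RNA. The 7 melanocyte markers lay between 11.4 and 17.1 in untreated cultures, 7 of the 8 macrophage and T cell markers were at or below 0, the macrophage marker Cd68 lay between 4.67 and 5.21, and of the 5 fibroblast markers Col1a2 and Pdgfra lay between 6.65 and 7.76, Col1a1 between 2.91 and 2.99, and Col3a1 and Thy1 at or below 0.

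Most ERVK copies were at a low level. The mean log2 value of the 10054 loci ran between 2.00 and 13.38, with quartiles at 2.49, 3.13 and 4.15; 679 loci reached 6 and 28 reached 10. The deposited values draw low levels together, so differences at low loci are understated. Just inside the limit lay an RMER19A, an RMER17A2 and an RLTR13D6 copy, each with a mean of 2.00, and just outside lay an RLTR16, an RLTR25A and a BGLII_Mur copy, also at 2.00 to 2 decimals. In 97 of the 10054 loci, 1 group lay wholly at or above 2 and the other wholly below. By position, 1277 loci touched an exon of a GENCODE gene, 5580 lay in introns and 3197 between genes. Of the 100 highest loci, 44 were IAPEz-int and 12 were IAPLTR1_Mm, the LTR that flanks many of these copies. The highest of all was an IAPEz-int copy of 3270 bp between genes at chr11:51665383-51668653 (minus strand), with 13.59 and 13.49 in sgArid1a libraries and 13.12 and 13.33 in sgScramble libraries. The groups did not overlap there, but its difference of 0.31 ± 0.13 (SE) did not pass the test (limma with Benjamini-Hochberg adjustment, adjusted p = 0.513).

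For each locus, the sgArid1a cultures were set against the sgScramble cultures with limma, and a locus was called at a Benjamini-Hochberg adjusted p under 0.05 over all 103654 repeat loci of any class with a mean of at least 2. Of the ERVK loci, 41 were called, or 0.408%, against 0.369% of repeat loci of all classes. 18 were higher with sgArid1a (0.179% against 0.107% of all classes) and 23 were lower (0.229% against 0.262%). The count called stood near the background. At an unadjusted limma p under 0.05 there were 968 of the 10054 ERVK loci. Loci of all classes were not counted at that limit, so counts of loci at an unadjusted p have no background here. By the adjusted p of the authors' deposited table, 16 ERVK loci were called, 7 higher and 9 lower, against 0.121% of all classes, and all 16 were among the 41. The split by direction was 18 higher and 23 lower as deposited, 5 and 16 with median-centred libraries, and 32 and 22 after quantile normalization. It was 9 higher and 23 lower without sgArid1a library 1, 27 and 16 without sgArid1a library 2, 11 and 21 without sgScramble library 1, and 33 and 25 without sgScramble library 2, so which direction led depended on the libraries used. Both sgArid1a libraries lay above both sgScramble libraries at 27.1% of ERVK loci against 20.9% of loci of all classes, and below both at 12.7% against 16.3%. The median difference over ERVK loci was 0.07, beside 0.02 over all classes.

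**Figure D1:**
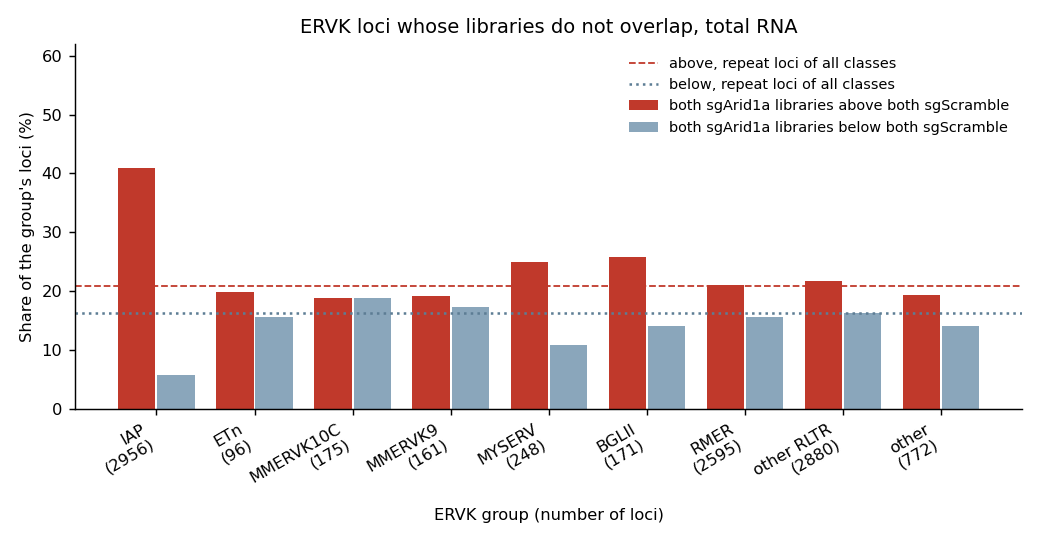
Share of each ERVK group's loci (percent, vertical axis) at which both sgArid1a libraries lay above both sgScramble libraries (first bar of each pair) or below them (second bar), with the number of loci under each group; dashed and dotted lines give the same shares over repeat loci of all classes. The IAP group stands at 41.0% above and 5.78% below, and each of the other 8 groups lies between 18.9% and 25.7% above.

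The IAP group held 2956 loci of 25 subfamily names and 12 of the 18 ERVK loci that rose, all of them IAPEz-int. No IAP locus fell by limma or by the authors' deposited table. At an unadjusted limma p under 0.05, 29 IAP loci were lower and 405 higher, among the 968 ERVK loci at that limit. Both sgArid1a libraries lay above both sgScramble libraries at 41.0% of IAP loci and below at 5.78%, with a median difference of 0.18. Over loci of all classes these shares were 20.9% and 16.3%. In the other groups the median differences were -0.02 for ETn (96 loci), -0.00 for MMERVK10C (175), 0.01 for MMERVK9 (161), 0.07 for MYSERV (248), 0.02 for BGLII (171), 0.02 for RMER (2595), 0.02 for the other RLTR names (2880) and 0.03 for the remaining names (772). The difference between these groups was not tested, since copies of a group share reads and libraries.

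IAPEz-int, the internal part of the IAP elements, had 2413 loci with a median divergence of 2.4% from their consensus. The mean log2 value over these loci was 4.49 and 4.39 in sgArid1a libraries and 4.19 and 4.31 in sgScramble libraries. The groups did not overlap. Averaged per library, IAPEz-int was 0.20 ± 0.08 (SE) higher with sgArid1a, which did not pass the test over all 839 subfamilies (limma, Benjamini-Hochberg adjusted p = 0.578). The difference was above 0 at 1962 of the 2413 loci (81.3%), against 53.7% of loci of all classes. Over 13 settings, the main one among them, the median difference of the IAPEz-int loci lay between 0.14 and 0.26. These limits came from leaving out sgScramble library 1 and sgArid1a library 2. The median was 0.18 with median-centred libraries and 0.19 after quantile normalization. Settings that change only the variance model or add a replicate block cannot move it.

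Within IAPEz-int the median difference went with the level of the locus. The median was 0.09 over 587 loci with a mean log2 value of 2 to under 3, then 0.17 (581 loci), 0.22 (515), 0.24 (369), 0.29 (285) and 0.33 (76 loci at 8 or more). In the top bin, both sgArid1a libraries lay above both sgScramble libraries at 61 of 76 loci, against 20.9% of loci of all classes, and the difference was above 0 at 74, against 53.7%. ERVK loci outside the IAP group in the same bins had medians of 0.01, 0.04, 0.07, -0.03, -0.01 and -0.03. Since the deposited values draw low levels together, the small differences of low IAPEz-int loci and the larger ones of high loci cannot be told apart from that scale.

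**Figure D2:**
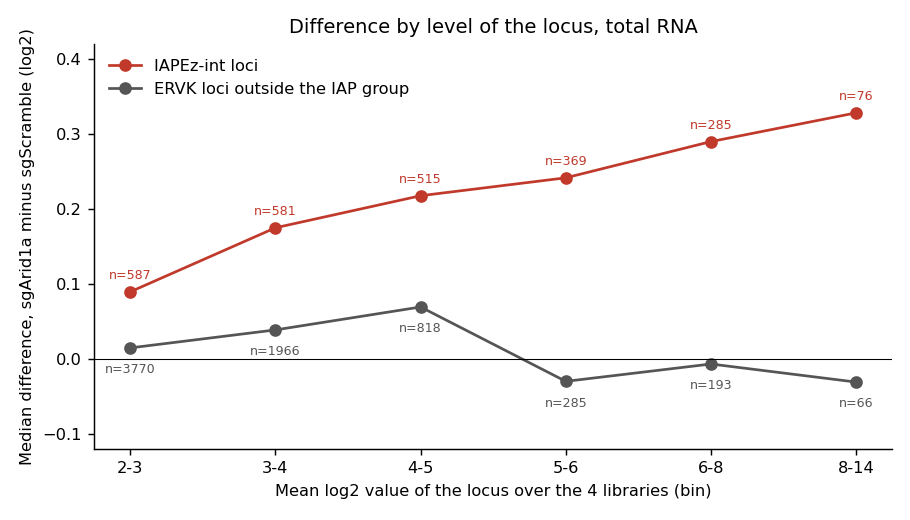
Median difference of log2 values, sgArid1a minus sgScramble (vertical axis), by the mean log2 value of the locus (bins on the horizontal axis), for IAPEz-int loci and for ERVK loci outside the IAP group, with the number of loci beside each point. The IAPEz-int medians run between 0.09 and 0.33 from the lowest to the highest bin, and those of the other loci between -0.03 and 0.07.

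Other properties of the copies divided the IAPEz-int loci less. By length, the medians were 0.17 under 1000 bp (291 loci), 0.19 at 1000 to 1400 bp (244), 0.14 at 1400 to 2000 bp (193), 0.17 at 2000 to 3200 bp (521), 0.24 at 3200 to 3400 bp (219), 0.22 at 3400 to 6100 bp (150) and 0.23 at 6100 to 6800 bp (795), the length of a nearly whole internal part. The 12 called loci fell 4 each into the classes of 1000 to 1400, 3200 to 3400 and 6100 to 6800 bp. Loci between genes had a median of 0.20 (1760), loci in introns 0.21 (593) and loci touching exons 0.19 (60). Copies in the sense of their gene had 0.21 (188) and copies in antisense 0.20 (465). Among the 795 long copies, those with IAPLTR1_Mm on both sides had 0.23 (304), with IAPLTR1a_Mm 0.24 (367), with IAPLTR2_Mm 0.22 (25), with IAPLTR2b 0.25 (19) and with IAPLTR2a 0.30 (6).

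The IAPEz-int loci that rose were spread over 10 chromosomes. At chr1:110330654-110333923 (plus strand, between genes, 190497 bp to Cdh7) the values were 6.08 and 5.94 in sgArid1a libraries and 4.63 and 5.26 in sgScramble libraries, a rise of 1.06 ± 0.22 (SE; limma adjusted p = 0.0162). At chr7:4455796-4459064 (minus strand, intron of the antisense transcript Gm15494) they were 8.55 and 8.46 in sgArid1a libraries and 7.66 and 7.56 in sgScramble libraries, a rise of 0.90 ± 0.18 (adjusted p = 0.0147). At chr13:100592583-100593870 (minus strand, between genes, 2087 bp to Marveld2) they were 8.62 and 8.43 in sgArid1a libraries and 7.64 and 7.70 in sgScramble libraries, a rise of 0.86 ± 0.18 (adjusted p = 0.0241). In each of these 3 copies the groups lay apart by more than the gap between libraries of a group.

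The other 9 rose by 0.69 or more on the log2 scale. They lay in introns of Rnf157, Gsap, Gpc6, Kcnh6, Celf2 and Cntn5 and between genes at chr4:60407354-60413872, chr5:51001217-51007690 and chrX:127936227-127939499. The copy in Kcnh6, a potassium channel gene, was the highest of them, with 11.06 and 10.85 in sgArid1a libraries and 10.19 and 10.34 in sgScramble libraries. Its difference was 0.69 ± 0.16 (limma adjusted p = 0.0462). Of the 12 calls, 4 were also made in the authors' deposited table, which gave adjusted p of 0.000812 on chromosome 7, 0.00311 on chromosome 13, 0.00367 in Cntn5 and 0.0164 on chromosome X. All 7 IAPEz-int copies among the 10 largest rises lost their call without at least 1 of the 4 libraries. Those on chromosomes 1 and 4 lost it without sgArid1a library 1 or without sgScramble library 1, that in Rnf157 without sgArid1a library 1 or sgScramble library 2, that in Gm15494 without either sgScramble library, that on chromosome 13 without sgArid1a library 1 or either sgScramble library, that at chr5:51001217-51007690 without either sgArid1a library or sgScramble library 1, and that in Gsap without any 1 of the 4.

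**Figure D3:**
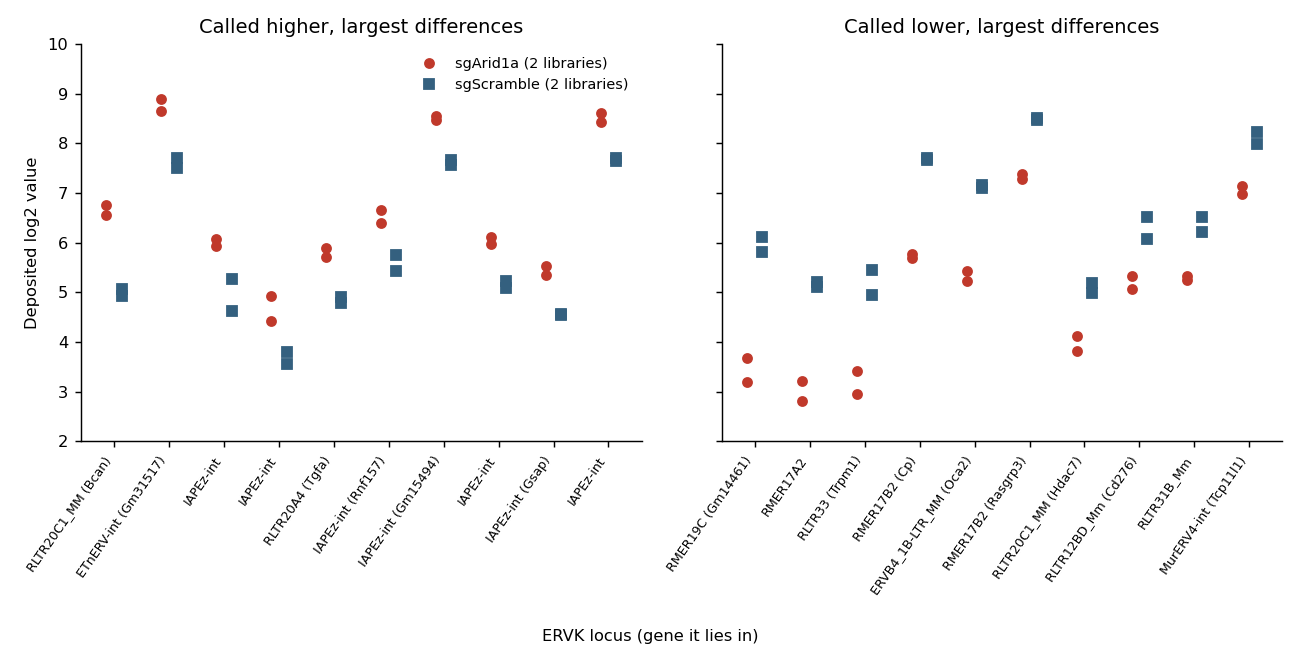
Deposited log2 values (vertical axis) of the 10 loci with the largest rise (first panel) and the 10 with the largest fall (second panel) among called ERVK loci with a mean of at least 4; circles are the 2 sgArid1a libraries, squares the 2 sgScramble libraries, and the gene a locus lies in stands in brackets. The groups do not overlap at any of the 20 loci; Bcan has 6.77 and 6.57 against 4.92 and 5.08, and Gm14461 has 3.67 and 3.20 against 5.80 and 6.11.

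IAPEY4_I-int, the internal part of a related IAP subfamily and chosen here after its values were seen, went the other way by value. Its 44 loci averaged 4.39 and 4.31 in sgArid1a libraries and 4.55 and 4.57 in sgScramble libraries. These groups did not overlap, and the subfamily difference of -0.21 ± 0.07 (SE) did not pass the test (limma adjusted p = 0.559). Over the 23 copies longer than 7000 bp the median difference was -0.35, with 13 copies wholly below sgScramble and 0 wholly above, against 16.3% and 20.9% of loci of all classes. Over the 21 shorter copies it was -0.02. The highest, in an intron of Dmd at chrX:83867770-83875295 (minus strand), had 8.59 and 8.63 in sgArid1a libraries and 8.94 and 8.99 in sgScramble libraries. No single IAPEY4_I-int locus was called by limma, and 12 were lower and 0 higher at an unadjusted p under 0.05.

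The ETn group, read from subfamily names, had 96 loci, of which 1 rose and 1 fell. Which of its copies are ETn and which are the related MusD elements was not determined. The ETnERV-int copy at chr14:15028198-15034563 (plus strand, 6365 bp), whose stretch was printed above, had 8.65 and 8.89 in sgArid1a libraries and 7.498 and 7.71 in sgScramble libraries. The groups lay well apart, and the copy rose by 1.16 ± 0.18 (SE; limma adjusted p = 0.000893), with an adjusted p of 6.06e-07 in the authors' deposited table. It lies antisense in the lincRNA Gm31517, 16139 bp from the coding gene Nek10. The MMETn-int copy that fell (chr10:24854834-24859529, plus strand, 10457 bp from Med23) had 2.33 and 2.48 in sgArid1a libraries and 3.49 and 3.71 in sgScramble libraries. Its difference was -1.19 ± 0.21 (limma adjusted p = 0.00396), with an adjusted p of 0.573 in the authors' deposited table. The second highest copy with an ETn name, ETnERV-int at chr12:20893615-20896048 (plus strand), had 7.49 and 7.35 in sgArid1a libraries. It had 7.36 and 7.39 in sgScramble libraries, and the groups overlapped.

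Several ERVK loci next to the ETnERV-int copy, chosen after their values were seen, rose with it. The ERVB7_2B-LTR_MM before it had 5.62 and 5.52 in sgArid1a libraries and 4.36 and 4.49 in sgScramble libraries, and the one after it had 6.55 and 6.18 in sgArid1a libraries and 5.32 and 5.12 in sgScramble libraries. They rose by 1.14 ± 0.21 and 1.15 ± 0.21 (limma adjusted p = 0.00416 and 0.00438), about as much as the internal part. In the authors' deposited table their adjusted p was 0.241 and 0.0493. An IAP1-MM_I-int copy before them, at chr14:15020026-15022513, differed by 0.90 ± 0.22 (adjusted p = 0.0644), and an RMER20B LTR further on, at chr14:15150597-15151166 and on the other strand, rose by 1.07 ± 0.22 (adjusted p = 0.0171). The authors' deposited table did not call this RMER20B LTR. Adjacent loci can share 1 transcript and are not independent.

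**Figure D4:**
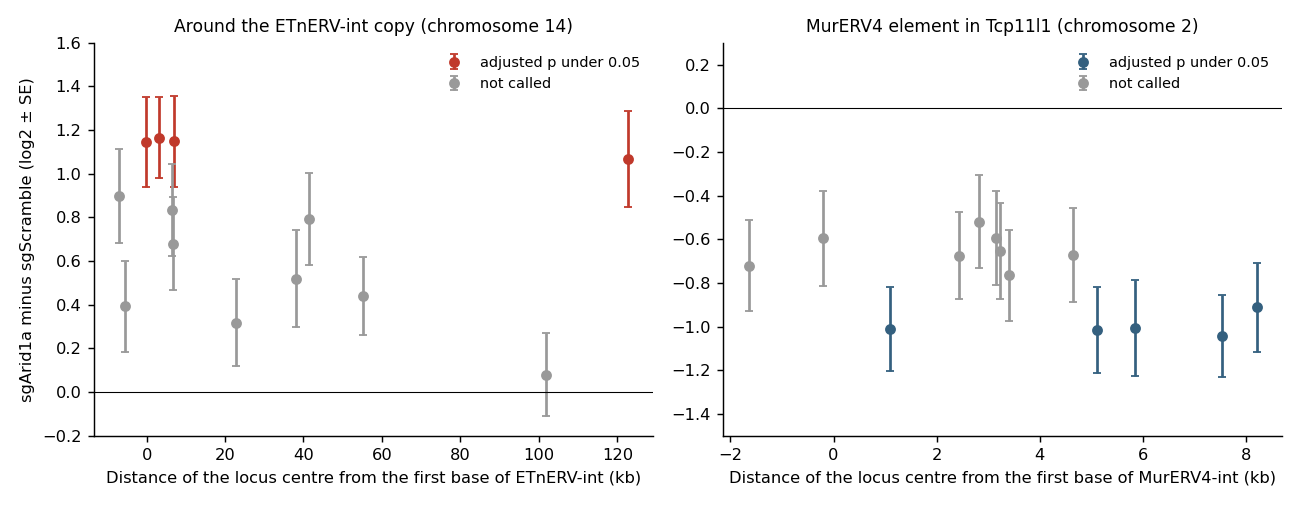
Difference of log2 values with its standard error (vertical axis) for ERVK loci by distance in kb from the first base of the ETnERV-int copy on chromosome 14 (first panel) and from the first MurERV4-int part in Tcp11l1 on chromosome 2 (second panel); coloured points had an adjusted p under 0.05, grey ones did not. On chromosome 14 the called loci lie between 1.07 and 1.16, and in Tcp11l1 all 13 loci lie below 0.

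The MMERVK10C group, with 175 loci of MMERVK10 and RLTR10 names, had a median difference of -0.00. Of its loci, 18.9% lay wholly above and 18.9% wholly below sgScramble, against 20.9% and 16.3% of loci of all classes. Its 1 call was an MMERVK10C-int copy at chr3:94746509-94750475 (minus strand, in the pseudogene Gm15264). That copy had 4.38 and 3.78 in sgArid1a libraries and 5.12 and 5.00 in sgScramble libraries. It fell by 0.97 on the log2 scale (limma adjusted p = 0.0405) and was not called in the authors' deposited table. The highest copy, MMERVK10D3_I-int at chr13:58374515-58380652, had 7.66 and 7.51 in sgArid1a libraries and 7.69 and 7.81 in sgScramble libraries, and the RLTR10E copy in Tfb2m had 7.52 and 7.29 in sgArid1a libraries and 7.46 and 7.59 in sgScramble libraries. In the first of these copies the groups lay apart by a narrow margin and in the second they overlapped. MMERVK9 and BGLII loci had no call by limma in either direction, with 6 MMERVK9 loci higher and 4 lower, and 5 BGLII loci higher and 5 lower, at an unadjusted p under 0.05.

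The highest copies of the remaining groups stood mostly in exons of host genes, where reads of the gene and of the repeat cannot be told apart. They were RLTR9D2 in Dmxl2 and MMERVK9E_I-int in Prr14 (mean log2 values of 8.12 and 7.82), MYSERV6-int in Zfp605 and Zfp933 (9.87 and 7.48), BGLII_B2 in Lbh and BGLII in Itga4 (9.89 and 8.07), RMER19B in Rmc1 and RMER4B in Pomk (10.05 and 9.95), RLTR21 in AI662270 and RLTR19 in Gm11966 (11.36 and 10.95), and MLTR18B_MM in Gm3608 and RNERVK23-int near Vars (10.997 and 10.19). Per kb of length, on a log2 scale, the BGLII_B2 piece of 143 bp in Lbh stood at 12.69, above the IAPEz-int copy with the highest value (11.67). Their differences ran between -0.31 for RMER4B and 0.33 for BGLII_B2 and BGLII, and none of the 12 passed the test (smallest limma adjusted p = 0.668).

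The 23 loci that fell differed in annotation from the 18 that rose, of which 12 were IAPEz-int. None of the 23 was an IAP copy, 11 had RMER names and 13 touched an exon. Among all 10054 ERVK loci, 2956 were IAP, 2595 had RMER names and 1277 touched an exon. The median divergence was 15.5% for the loci that fell, 6.5% for those that rose and 13.65% over all ERVK loci. The RMER19C LTR in Gm14461 (chr2:78293081-78293597, plus strand), whose exon was printed above, had 3.67 and 3.20 in sgArid1a libraries and 5.80 and 6.11 in sgScramble libraries. It fell by 2.52 on the log2 scale (SE 0.22, limma adjusted p = 1.25e-07), and the authors' deposited table gave a log2 fold change of -3.85. An RMER17A2 LTR at chr2:78302650-78303591 (plus strand, between genes) had 3.22 and 2.82 in sgArid1a libraries and 5.21 and 5.11 in sgScramble libraries, a fall of 2.14 (adjusted p = 6.62e-07). Both groups lay well apart at these neighbouring loci, which are 346706 and 356275 bp from the nearest coding gene, Cwc22. In polyA RNA, Gm14461 was above the limit for testing only in the DMSO cultures, with 4.87 and 4.801 in sgArid1a libraries and 5.05 and 5.24 in sgScramble libraries (difference -0.31 ± 0.06, limma adjusted p = 0.00913).

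In Tcp11l1, a MurERV4 element and LTRs beside it gave 5 of the calls (MurERV4-int 3 times, RMER12B and RMER4A), a cluster chosen after its values were seen. The MurERV4-int part at chr2:104679223-104680277 (plus strand, antisense to Tcp11l1) had 7.13 and 6.99 in sgArid1a libraries and 7.98 and 8.23 in sgScramble libraries, a fall of 1.04 on the log2 scale (limma adjusted p = 0.00462). It lost its call without sgScramble library 2. All 13 ERVK loci there had differences below 0, at -0.52 to -1.04. On chromosome 8, an RMER19B and a MYSERV6-int copy in the antisense transcript 1700082M22Rik had differences of -1.004 and -0.94 (adjusted p = 0.0414 and 0.0300) and both fell.

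Of the 23 loci that fell, 18 lay in a gene, beside 12 of the 18 that rose. Among all 10054 ERVK loci, 1277 touched an exon and 5580 lay in introns. The host genes of the loci that fell were then read in the polyA libraries of untreated cultures, where 11.8% of all genes tested were called. The 23 loci that fell had 13 host genes, of which 10 were tested there, and 7 fell, against 5.98% lower over all genes. None rose by limma, and 0 were higher at an unadjusted p under 0.05. Trpm1, a cation channel gene of melanocytes, had 7.78 and 7.93 in sgArid1a libraries and 10.08 and 10.16 in sgScramble libraries, and fell by 2.27 on the log2 scale (limma adjusted p = 2.51e-08). The RLTR33 LTR in its exon (chr7:64222610-64223269, sense) had 2.96 and 3.41 in sgArid1a libraries and 4.95 and 5.46 in sgScramble libraries, and fell by 2.02. The groups did not overlap in either measure. At loci that touch an exon, here and below, reads of the gene and of the repeat cannot be told apart. Such a locus and its gene are therefore not separate measures.

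Cp, which encodes ceruloplasmin, a copper-carrying ferroxidase, fell by 1.48 in polyA RNA, and the RMER17B2 LTR in its exon (chr3:19992736-19992869, sense) fell by 1.95. Oca2, a melanosomal anion channel gene, fell by 0.93, and an ERVB4_1B-LTR_MM in its intron (chr7:56333022-56333533, antisense) fell by 1.81. Rasgrp3, a Ras activator gene, fell by 0.69, and its RMER17B2 exon piece (chr17:75527802-75527933, sense) by 1.16. Mgll (monoacylglycerol lipase) fell by 0.99 with an RMER6A copy in its intron at -1.03. Hdac7 (a class IIa histone deacetylase) fell by 0.49 with an RLTR20C1_MM piece at -1.11, and Tcp11l1 by 0.44. The authors' deposited table called the loci in Cp, Oca2 and Rasgrp3 and not those in Mgll and Hdac7. The piece in Hdac7 lost its call without sgArid1a library 2. Car8, Nfatc2 and Cd276 differed by -0.38, -0.06 and 0.00 and did not pass, while RMER6C, RLTR20A4 and RLTR12BD_Mm pieces in them fell, with differences of -1.11, -0.94 and -1.10. The piece in Cd276, and an RLTR31B_Mm LTR between genes on chromosome 10 that fell by 1.07, lost their call without sgScramble library 2.

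The 18 loci that rose had 10 host genes, of which 5 were tested in the untreated polyA libraries, where 5.84% of all genes were called higher and 5.98% lower. Tgfa, which encodes a ligand of the EGF receptor, was called in the same direction as its locus, and Celf2, Gpc6 and Rnf157 in the opposite one. Whether rising and falling loci differ in this was not tested. The RLTR20A4 piece in an exon of Tgfa (chr6:86274611-86274698, antisense) had 5.71 and 5.90 in sgArid1a libraries and 4.78 and 4.90 in sgScramble libraries, a rise of 0.96 (limma adjusted p = 0.0230), and Tgfa rose by 0.46 (adjusted p = 0.0335). That piece lost its call without sgArid1a library 2 or sgScramble library 1. The RLTR20C1_MM piece in an exon of Bcan, the gene of the matrix proteoglycan brevican (chr3:87996217-87996309, antisense), had 6.77 and 6.57 in sgArid1a libraries and 4.92 and 5.08 in sgScramble libraries. It rose by 1.67 ± 0.20 (SE, limma adjusted p = 1.47e-05), the largest rise, while Bcan differed by 0.33 (adjusted p = 0.252). Reads of these exon pieces and of Tgfa and Bcan cannot be told apart. The authors' deposited table called the piece in Bcan and not the piece in Tgfa. The 3 tested genes with an IAPEz-int copy that rose in an intron, each antisense to its gene, had differences of -0.39 for Celf2, -0.44 for Gpc6 and -0.38 for Rnf157 (adjusted p = 0.0154, 0.0210 and 0.0429).

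**Figure D5:**
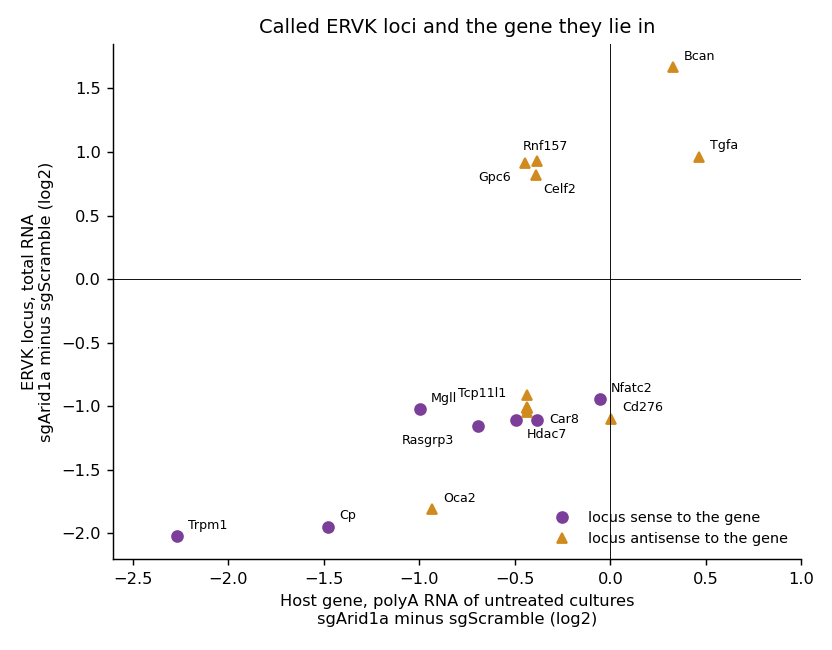
Difference of the called ERVK locus in total RNA (vertical axis, log2, sgArid1a minus sgScramble) against the difference of the gene it lies in, in polyA RNA of untreated cultures (horizontal axis, log2); circles are loci in the sense of the gene and triangles loci antisense to it. Trpm1, Cp and Oca2 lie low on both axes, at -2.27, -1.48 and -0.93 for the gene, and Celf2, Gpc6 and Rnf157 lie above 0 for the locus and below 0 for the gene.

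The host genes in other polyA libraries gave partly other values. In tumors, where 54% of genes were called, Trpm1 and Oca2 fell by 0.90 and 1.14, Cp rose by 0.95 and Tgfa rose by 2.47. In DMSO cultures, where 7.88% of genes were called, Trpm1 fell by 1.52, Cp by 1.09, Oca2 by 0.61 and Rasgrp3 by 0.36, and Tgfa rose by 0.35 (limma adjusted p of 0.0217 or less). The repeat loci themselves were counted in untreated total RNA, not in these libraries.

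Averaged by subfamily, the ERVK family showed no call. Of 224 ERVK subfamilies with at least 5 loci, 0 were called by limma (0 of 839 of all classes; 0%), and 24 had an unadjusted p under 0.05 (17 higher, 7 lower), among 70 of all classes (8.34%). The smallest adjusted p was that of RLTR9B, an LTR with 10 loci, at 3.10 and 3.10 in sgArid1a libraries and 2.82 and 2.86 in sgScramble libraries (difference 0.26, adjusted p = 0.337). The largest subfamilies after IAPEz-int were RMER6A (368 loci), RMER19B (277) and RMER4B (251), with differences of 0.04 ± 0.03, 0.03 ± 0.03 and 0.04 ± 0.03 (SE; adjusted p = 0.797, 0.856 and 0.804). When a subfamily's loci were added up on the linear scale, so that its highest copies weigh most, 3 were called. They were ETnERV-int at 0.50 (limma adjusted p = 0.0217), RLTR31B_Mm at -0.51 (0.0303) and RMER17B2 at -0.81 (0.000938). These hold called loci named above, on chromosome 14, on chromosome 10, and in exons of Cp and Rasgrp3. By the mean they differed by 0.06, -0.17 and -0.04, and none passed (adjusted p = 0.858, 0.353 and 0.858).

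An ERVK LTR can also serve as a gene's promoter. Of the genes in the tables, 184 had their start inside a listed ERVK locus (178 loci), and 12 of these loci were among the 10054. Internal parts and loci on either strand were counted, so these starts do not all lie in LTRs. In polyA RNA of untreated cultures, 23 of the 184 were tested and 5 were called, 4 higher and 1 lower, against 11.8% of all genes (5.84% higher and 5.98% lower). The 3 genes H2-T22, H2-T9 and H2-T10 encode nonclassical MHC class I molecules and start in RLTR34D_MM LTRs on chromosome 17. The window of H2-T22 (chr17:36042693-36042992, minus strand, 250 bases before to 50 after its start, RefSeq GRCm38.p6), the promoter among these that lies in a locus at or above 2, has the LTR in capitals.
H2-T22: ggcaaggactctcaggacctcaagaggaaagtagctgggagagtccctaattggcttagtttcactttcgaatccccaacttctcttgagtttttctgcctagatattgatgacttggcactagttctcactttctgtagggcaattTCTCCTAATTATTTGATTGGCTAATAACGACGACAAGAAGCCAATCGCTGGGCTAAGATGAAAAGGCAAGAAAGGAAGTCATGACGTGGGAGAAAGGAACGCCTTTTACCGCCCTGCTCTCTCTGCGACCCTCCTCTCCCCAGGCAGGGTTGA
The letters TTTC, then any 2 bases, then TTTC, the core of the interferon-stimulated response element, began at base 60 of this window, before the LTR, and 1131 of 32851 promoter windows held them on either strand (3.44%). H2-T22 had 8.49 and 8.43 in sgArid1a libraries and 7.82 and 8.16 in sgScramble libraries, a rise of 0.47 ± 0.12 (SE; limma adjusted p = 0.0264). H2-T9, which starts in the same LTR and overlaps it, had a rise of 0.47 (adjusted p = 0.0261), so how reads were divided between them is uncertain.

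The LTR itself had 6.13 and 5.46 in sgArid1a libraries and 5.71 and 5.49 in sgScramble libraries in total RNA, so its groups overlapped (difference 0.19, adjusted p = 0.895). H2-T10 had 4.72 and 4.60 in sgArid1a libraries and 4.23 and 4.39 in sgScramble libraries, a rise of 0.35 (adjusted p = 0.0285). AI662270, a noncoding transcript that starts in an RLTR12BD_Mm LTR on chromosome 11, had 9.75 and 9.95 in sgArid1a libraries and 9.46 and 9.31 in sgScramble libraries, a rise of 0.47 ± 0.10 (adjusted p = 0.0102). Its exon also holds the RLTR21 locus, with 11.51 and 11.40 in sgArid1a libraries and 11.19 and 11.35 in sgScramble libraries of total RNA, a difference of 0.18 that did not pass. Gm6756, which starts at the last base of a MYSERV6-int internal part with a mean log2 value of 0, fell by 0.46 (limma adjusted p = 0.00605). The number of these calls depended on the libraries used. It was lower without sgArid1a library 1, sgArid1a library 2 or sgScramble library 1, and higher without sgScramble library 2. The number of calls over all genes moved in the same directions. With a replicate block 1 call was left, while calls over all 11604 genes went from 1372 to 677.

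In the other polyA tables, each with control libraries of its own, the genes that start in an ERVK locus gave other counts. In tumors 16 of 29 were called, 11 higher and 5 lower, against 54% of all genes (26% higher and 28.1% lower). The homeobox gene Rhox5 rose there by 2.59, with 7.94 and 7.995 in sgArid1a tumors and 5.28 and 5.47 in sgScramble tumors, and Neb, the gene of the muscle protein nebulin, rose by 2.15. H2-T9, H2-T22 and H2-T10 rose by 0.79, 0.79 and 0.48 in tumors, where cells other than B16F10 add RNA; fewer cells of a type and less RNA per cell cannot be told apart in such samples. In DMSO cultures 0 of 21 were called by limma, with 6 at an unadjusted p under 0.05, against 7.88% of all genes called (3.5% higher and 4.38% lower). In MC38 cells 7 of 31 were called, 6 higher and 1 lower, against 21.2% of all genes (8.33% higher and 12.9% lower), with H2-T22 and H2-T9 higher by 0.14 and 0.13. In MEFs 4 of 21 were called, all higher, against 9.71% of all genes (4.69% higher and 5.01% lower), namely H2-T9 (0.32), H2-T22 (0.30), H2-T10 (0.19) and Apobec1 (0.17), the gene of a cytidine deaminase.

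Genes that silence ERVK copies or sense their products were read in the same untreated polyA libraries. Of 32 silencing genes, all tested, 2 rose and 0 fell by limma, against 5.84% higher and 5.98% lower over all genes; 9 were higher and 1 lower at an unadjusted p under 0.05. Uhrf1, which brings DNA methyltransferase 1 to newly made DNA, had 12.51 and 12.44 in sgArid1a libraries and 11.78 and 11.94 in sgScramble libraries, a rise of 0.61 ± 0.09 (SE; limma adjusted p = 0.00104). Chaf1a, a subunit of the histone chaperone CAF-1, had 11.01 and 11.02 in sgArid1a libraries and 10.25 and 10.67 in sgScramble libraries, a rise of 0.55 ± 0.12 (adjusted p = 0.0110). Trim28 and Setdb1 differed by 0.18 and 0.25 and did not pass (adjusted p = 0.199 and 0.119). The count was lower without either sgArid1a library and higher without sgScramble library 2, and the count over all genes moved in the same directions. In the other tables the list gave other counts, with 2 higher and 17 lower of 31 in tumors (26% and 28.1% of all genes), 1 called of 31 in DMSO cultures, higher (3.5% of all genes higher and 4.38% lower), 3 called of 32 in MC38 cells, all higher (8.33% and 12.9%), and 1 higher and 2 lower of 32 in MEFs (4.69% and 5.01%).

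Of 20 genes that sense or restrict retroelement nucleic acids, 16 were tested, and 7 rose and 0 fell by limma, against 5.84% higher and 5.98% lower over all genes, with 9 of the list higher and 0 lower at an unadjusted p under 0.05. Ifih1 and Ddx58, whose products MDA5 and RIG-I sense double-stranded RNA, had 7.48 and 7.64 and 8.11 and 8.20 in sgArid1a libraries, and 6.92 and 6.84 and 7.49 and 7.51 in sgScramble libraries. They rose by 0.68 ± 0.11 and 0.66 ± 0.10 (SE; limma adjusted p = 0.00213 and 0.00138), with no overlap between groups. Dhx58, a relative of both, rose by 0.63, Eif2ak2, the double-stranded RNA kinase PKR, by 0.43, and Adar, which edits double-stranded RNA, by 0.35. Rnaseh2b, a subunit of RNase H2, rose by 0.45 and Samhd1, a dNTP hydrolase, by 0.32. The count was lower without either sgArid1a library, as was the count over all genes. It was 4 with a replicate block, where calls over all 11604 genes went from 1372 to 677. Elsewhere the calls of this list were 13 higher and 4 lower of 20 in tumors, against 26% higher and 28.1% lower over all genes. In DMSO cultures 4 of 16 were called, all higher (3.5% and 4.38% of all genes). In MC38 cells 10 were higher and 2 lower of 19 (8.33% and 12.9%). In MEFs 10 of 18 were called, all higher (4.69% and 5.01%). The list's relation to the ERVK loci was not tested.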

How the data were processed

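The submitters' processing notes name STAR 2.5.3a, HOMER and the build GRCm38 (mm10). Per the file headers, reads were counted per repeat locus without condensing copies and with no strand option, and per gene over exons. The authors deposited normalized log2 values whose low levels are shrunken towards each other, and log2 fold changes and p-values beside them; the header also gives a divergence fraction per locus, as deposited. The labels give total RNA for the 4 repeat libraries, while the protocol text names an mRNA kit for all libraries. Columns named sgNT were taken as the sgScramble total RNA libraries. Values of 2 columns of the tumor table whose names match no sample's labels were not used.

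Loci whose mean over the 4 libraries reached 2, subfamilies with at least 5 such loci and genes with a mean of at least 4 were fitted with limma 3.58.1 (limma-trend, R 4.3.3), all groups of a table together, with Benjamini-Hochberg adjustment over everything fitted. No pseudocount was added. A call is an adjusted p under 0.05, and errors after ± are standard errors. ERVK groups were read from subfamily names, and positions from GENCODE vM21. Loci within 1 kb formed a stretch (8255 stretches). The loci named were the 2 highest of each group and, at a mean of at least 4, the 10 largest called rises and 10 largest called falls, 1 per stretch; others are marked in the text as chosen after their values were seen or are described as part of a count. Members and gene lists were chosen with earlier results of these data known. Identity of sequences was computed with Biopython 1.88. Scripts were tested on simulated data. Same-numbered libraries did not deviate together (correlation of deviations -0.05 over all loci and over ERVK loci, -0.38 over genes of untreated cultures), so the replicate numbers were not taken to pair samples. Alternatives were other scalings, filters and variance models, loci outside gene bodies, the authors' p-values and leaving out each library.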

Additional observations from a re-analysis of the deposited data

Results flagged for a closer look

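Among the called genes that start in an ERVK locus or silence or sense ERVK copies, 3 had libraries that went opposite ways between tables with control libraries of their own, and so did 6 host genes of called loci. The difference between tables was not tested. AI662270, which starts in an RLTR12BD_Mm LTR, differed by 0.47 in untreated B16F10 cultures, where it was called, by 0.162 in tumors, by 0.0979 in DMSO cultures and by -0.0287 in MC38 cells (log2, sgArid1a minus sgScramble). Uhrf1 differed by 0.61 in untreated cultures and 0.31 in DMSO cultures, and by -0.73 in tumors. Chaf1a differed by 0.55 in untreated cultures and 0.21 in DMSO cultures, and by -0.45 in tumors. Of the host genes, Cp differed by 0.946 in tumors, and by -1.48 in untreated cultures, -1.09 in DMSO cultures and -0.133 in MC38 cells. Gpc6 differed by 1.02 in tumors, and by -0.445 in untreated cultures, -0.0989 in MEFs, -0.0759 in MC38 cells and -0.0380 in DMSO cultures. Cd276 differed by 0.476 in tumors, and by -0.108 in MC38 cells and -0.0908 in MEFs. Nfatc2 differed by 0.132 in DMSO cultures and by -0.304 in tumors. Rnf157 differed by 0.163 in MEFs (Arid1a -/- minus WT), and by -0.384 in untreated cultures, -0.238 in tumors and -0.244 in DMSO cultures. Tcp11l1 differed by 0.182 in MEFs, and by -0.437 in untreated cultures, -0.550 in tumors and -0.320 in DMSO cultures. In each value given, every sgArid1a or Arid1a -/- library lay on the stated side of every library of its control. Some of these values did not pass the test (limma, adjusted p in brackets). They were AI662270 in tumors (0.0598), DMSO cultures (0.507) and MC38 cells (0.554), Chaf1a in DMSO cultures (0.204) and Cd276 in MEFs (0.356). Also not called were Gpc6 in MEFs (0.264) and DMSO cultures (0.808), Nfatc2 in DMSO cultures (0.383) and Rnf157 in MEFs (0.0749) and DMSO cultures (0.190).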

How the results depend on the processing

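The groups did not overlap at any of the 41 called ERVK loci, so leaving out 1 library could not turn a direction. The replicate block, variance models and filters leave the difference of a locus as it is, so only other scalings could turn it. All 41 called ERVK loci kept their direction in every setting in which they were fitted (39 of 39 with a mean of at least 3, 22 of 22 outside gene bodies). Their number was 32 to 58 without 1 library, 31 with a replicate block, 21 with median-centred libraries, 54 after quantile normalization, 21 with a mean of at least 1, 80 with a mean of at least 3, 62 with robust eBayes, 37 without a variance trend, 21 outside gene bodies, 16 by the authors' deposited adjusted p and 35 as stretches with a called locus, a count added after seeing the data. Except for the 2 limits on the mean, the restriction to loci outside genes and the last count, which change what is counted, the cause of these shifts was not tested. ERVK subfamilies called numbered 0 under all settings, 3 by the log2 sum excepted. The median ERVK difference of 0.07 was 0.0533 to 0.0823 without 1 library, 0.0454 with median-centred libraries, 0.0302 with a mean of at least 1, 0.11 with a mean of at least 3 and 0.11 outside gene bodies. Genes that start in an ERVK locus and were called numbered 1 to 7 without 1 library, 1 with the replicate block and 3 with a mean of at least 6, beside 5; silencing genes numbered 1 to 8 without 1 library, beside 2; sensing genes numbered 2 to 7 without 1 library and 4 with the replicate block, beside 7. Crossing the replicate numbers, chosen after seeing the data, gave 5, 3 and 8 calls in these 3 lists. Over all 11604 genes, calls numbered 1372 in the main setting, 677 with the replicate block and 1764 with the crossed numbers. They also varied without 1 library. The block removed the calls of IAPEz-int in Gm15494 and Gsap, on chromosome 13 and at chr5:51001217-51007690, and of AI662270, H2-T9, H2-T22 and H2-T10. Small differences of uncalled loci changed sign: RLTR9D2 was 0.0153 after quantile normalization, MMERVK9E_I-int -0.0120 and MLTR18B_MM -0.0138 with median-centred libraries, and MLTR18B_MM -0.0455 after quantile normalization. Without 1 library they ran between -0.0254 and 0.108 for ETnERV-int on chromosome 12, -0.151 and 0.0933 for RLTR9D2, -0.0669 and 0.0846 for MMERVK9E_I-int, -0.165 and 0.286 for MYSERV6-int in Zfp605, -0.0599 and 0.108 for MYSERV6-int in Zfp933, -0.188 and 0.0132 for RMER19B in Rmc1, -0.109 and 0.123 for MLTR18B_MM, and -0.198 and 0.132 for RLTR19. The subfamilies RMER19B and RMER4B were -0.0141 and -0.0752 by the log2 sum. With 2 libraries a group and low levels drawn together, small differences at low loci were not detectable.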
